A study of Mus musculus with 8 samples.

Results

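The transcripts of 8 transcription factor genes were followed through an RNA immunoprecipitation (RIP) experiment on mouse striatum: Mef2a, Mef2c and Mef2d of the MEF2 family, Sp1, Sp3 and Sp4 of the Sp family, the repressor gene Rest, and Creb1. They were chosen by name, with Mef2c and Sp4 noted because their values were high only with the CPEB4 antibody, and every probe set that the platform annotation gives to 1 of these genes was read. That gave 26 probe sets of 45101 on the array, and 8 genes of 17097 named. The tissue was striatum of male mice between 7 and 8 months old, WT or HD, combined into 1 pool for each genotype; the design text names 4 mice. RNA crosslinked to protein with formaldehyde was recovered with an antibody against CPEB1, with an antibody against CPEB4, or with rabbit IgG, the control for RNA that sticks to antibody and beads, and an aliquot of lysate was kept as input. Each of the 4 fractions has 1 array from the WT pool and 1 from the HD pool, 8 arrays in all, so no group was replicated. HD is not written out in the labels, and the line, transgene and promoter of these mice are not named there. A pool gives 1 value for several animals, so the spread between mice was not measured.

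CPEB1 and CPEB4 are RNA-binding proteins that recognise the cytoplasmic polyadenylation element in the 3′ untranslated region of an mRNA and control its poly(A) tail and its translation. MEF2 proteins are MADS-box factors that bind AT-rich sites, act downstream of neuronal activity and calcium, and switch between repression with class IIa histone deacetylases and activation after calcineurin acts on them. Sp1, Sp3 and Sp4 are zinc finger proteins that share the GC box as binding site, Sp4 being the member enriched in neurons. REST is a zinc finger repressor that silences neuronal genes outside neurons, and CREB1 is a leucine zipper factor that protein kinase A and calcium-dependent kinases phosphorylate. Sp1, REST and CREB-dependent transcription are known as processes disturbed in Huntington's disease.

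Values are RMA probe set summaries on the log2 scale, as deposited, and differences between them are log2 differences, so that 1 is a 2-fold difference. The material of every array had been amplified over 27 PCR cycles, and the bearing of this on the differences was not tested. The median of all probe set means, 4.23, serves as a mark of dim probe sets, since no detection call was used here. Of the 26 probe sets 16 had a mean over the 8 arrays at or below it. By gene, each represented by its probe set of highest mean, 6 of the 8 lay above it and were tested; Sp1 and Sp3 did not. On the mean of the 6 arrays other than CPEB4 these probe sets would all have passed too, with 4.40 for Mef2c and 4.96 for Sp4. The choice of the brightest probe set, however, used the CPEB4 arrays. On the other 6 arrays Mef2c 1424852_PM_at (4.55) was brighter than the 1451506_PM_at chosen (4.40). With CPEB4 it had 0.55 in WT and -0.05 in HD over IgG. For Mef2a, 1425426_PM_a_at (4.88) was likewise brighter than the chosen 1427185_PM_at (4.63). Levels of different probe sets are not comparable with each other, as each has its own probes.

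Medium spiny neuron markers checked the tissue label. Of 8 on the array, 7 lay above 4.23 on both inputs, among them Ppp1r1b (11.07 in WT and 10.30 in HD) and Pde10a (12.20 and 11.34), while Tac1 (3.22 and 3.92) lay below it. Drd1 (4.53 and 4.47) lay only just above it. By mean over the 8 arrays 11345 of the 17097 genes named lay above 4.23, so the check is a weak one. Input also held markers of oligodendrocytes (5 of 5 above 4.23 on both), astrocytes (5 of 6), microglia (5 of 6), endothelium (3 of 5), choroid plexus (4 of 4) and blood (2 of 2). The CPEB4 arrays stood apart in their hybridization control probe sets, which averaged 9.47 and 9.94, against 10.26 to 10.89 on the other 6. Over the 11345 genes tested the SD of the WT CPEB4 array, 1.79, was the largest, while that of the HD CPEB4 array, 1.68, was matched by WT CPEB1 within the 1.28 to 1.68 of the others. The median of an array ranged from 4.03 to 4.28. The bearing of these array differences on the CPEB4 values below was not tested, except through the renormalized values given beside them.

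Mef2c encodes the MEF2 factor best known from cortical and hippocampal neurons, where it restrains excitatory synapse number. Its brightest probe set, 1451506_PM_at, stood at 7.77 in the WT pool and 6.81 in the HD pool with CPEB4. On the other 6 arrays it lay between 4.14 and 4.67: 4.36 and 4.43 in input, 4.14 and 4.43 with IgG, and 4.67 and 4.39 with CPEB1, in WT and HD. Both CPEB4 arrays were thus above all others, by at least 2.15, and the groups did not overlap. The difference from IgG was 3.63 in WT and 2.39 in HD, a mean of 3.01 or 8.04-fold. This value is what Mef2c was noted for and is given as a description. After quantile normalization it was 2.94 and 2.17, and after cyclic loess 3.94 and 2.67.

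The other 2 Mef2c probe sets did not show this. 1424852_PM_at stood at 5.03 and 4.54 with CPEB4 and between 4.25 and 4.96 elsewhere, and 1451507_PM_at at 3.94 and 3.46 against 3.15 to 3.65. In both, the WT CPEB4 array was the highest of the 8 and the HD array lay within the range of the others. The annotation lists all 3 Mef2c probe sets under the same target accession. The mean of the gene's probe sets put Mef2c 1.14 above IgG with CPEB4, in place of 3.01 for the brightest.

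Sp4 encodes the Sp factor of neurons. Its probe set 1421504_PM_at stood at 7.71 in WT and 7.22 in HD with CPEB4, against 5.02 and 4.90 in input, 5.17 and 5.09 with IgG, and 4.83 and 4.73 with CPEB1. The other 6 arrays spanned only 4.73 to 5.17, and both CPEB4 arrays lay at least 2.05 above them. The difference from IgG was 2.54 in WT and 2.13 in HD, a mean of 2.33 or 5.03-fold, again a description of what Sp4 was noted for. It was 1.75 and 1.74 after quantile normalization. The second Sp4 probe set, 1437508_PM_at, lay between 2.61 and 2.86 on all 8 arrays, so it was dim throughout and showed no difference between fractions (0.03 and -0.08 over IgG with CPEB4).

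**Figure D1:**
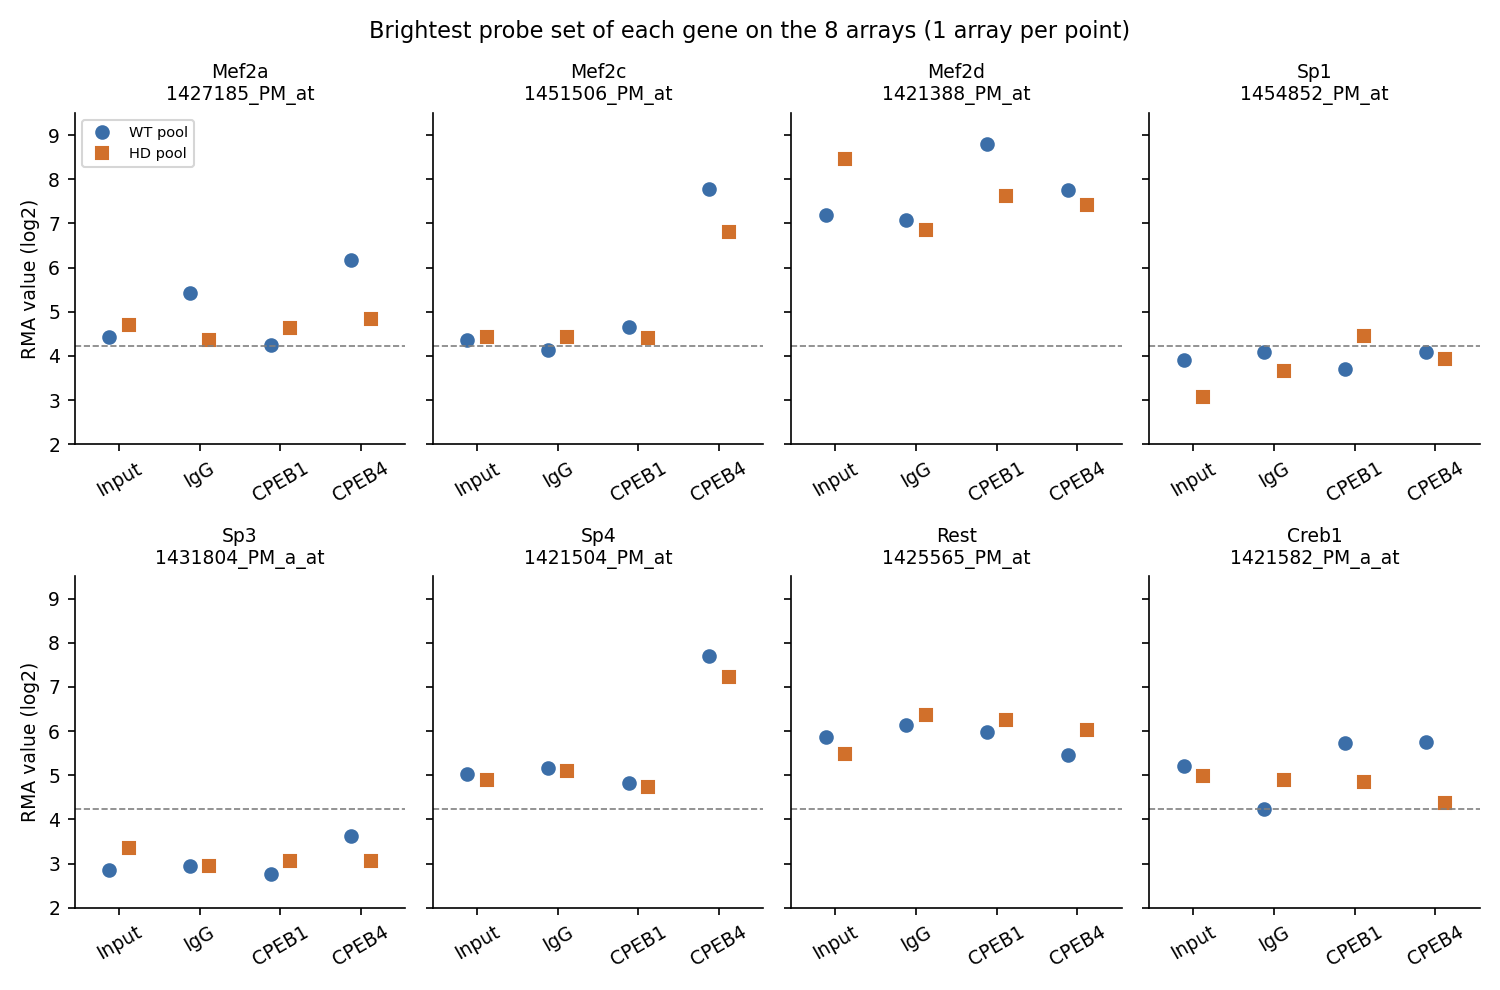
RMA value (log2, vertical axis) of the brightest probe set of each of the 8 genes in input and in the IgG, CPEB1 and CPEB4 precipitates, with circles for the WT pool and squares for the HD pool, 1 array per point; the dashed line marks 4.23, the median of all probe set means. Mef2c (7.77 and 6.81) and Sp4 (7.71 and 7.22) are set apart on the CPEB4 arrays, while the other 6 genes show CPEB4 points within or near the range of the other fractions.

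For Mef2a, a MEF2 factor widely expressed in neurons and muscle, the probe sets disagreed. The brightest, 1427185_PM_at, stood at 6.18 and 4.85 with CPEB4, 5.43 and 4.37 with IgG, 4.42 and 4.70 in input and 4.24 and 4.63 with CPEB1. WT was high with CPEB4 and IgG, and the HD CPEB4 array overlapped the rest, so that the difference from IgG of 0.62 ± 0.53 (SE, n = 2 pools) did not pass (limma adjusted p = 0.472). Yet 2 dimmer probe sets were high on both CPEB4 arrays and near the floor elsewhere. 1427186_PM_a_at stood at 7.37 and 6.31 with CPEB4 and at 2.76 to 3.80 on the other 6. 1421252_PM_a_at stood at 6.78 and 5.14 with CPEB4 and at 2.94 to 3.66 elsewhere.

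With all 45101 probe sets tested singly, 1427186_PM_a_at was higher with CPEB4 than with IgG by 3.95 ± 0.36, or 15.5-fold (n = 2 pools, limma adjusted p = 0.0284). Its IgG values, 2.76 in WT and 3.02 in HD, lay below 4.23, so the fold is taken over values near the array background. 1421252_PM_a_at was 3.02 ± 0.42 higher and missed the threshold (limma adjusted p = 0.0536). A further Mef2a probe set, 1452347_PM_at, stood at 4.16 and 4.37 with CPEB4, just above the 3.30 to 4.0 of the others (0.82 ± 0.22 over IgG, limma adjusted p = 0.154). 1425426_PM_a_at went with the WT pool instead: it stood at 6.62 with WT IgG and 6.50 with WT CPEB1, and at 3.73 to 4.72 on the other 6 arrays, CPEB4 included. Of the 3 probe sets listed under the same target accession, 1427186_PM_a_at, 1427185_PM_at and 1452347_PM_at, only the first was over 1 above all other fractions on both CPEB4 arrays.

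Mef2d, whose product is the MEF2 factor tied to neuronal survival, was represented by 1421388_PM_at. It stood at 7.75 and 7.42 with CPEB4, 8.79 and 7.62 with CPEB1, 7.07 and 6.84 with IgG, and 7.20 and 8.46 in input. Input of the HD pool and CPEB1 of the WT pool were the highest, and the fractions overlapped. The differences from IgG, 0.63 ± 0.59 with CPEB4 and 1.25 ± 0.59 with CPEB1, did not pass (limma adjusted p = 0.504 and 0.767). The former turned to -0.047 under cyclic loess and -0.38 after quantile normalization.

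The second Mef2d probe set, 1434487_PM_at, had 7.50 and 7.73 with CPEB4, 6.23 and 5.67 with CPEB1, 5.69 and 5.35 with IgG, and 5.02 and 4.75 in input. Here each CPEB4 array lay at least 1.27 above all others. Tested among all probe sets it was 2.10 ± 0.24 higher with CPEB4 than with IgG, 4.28-fold (n = 2 pools, limma adjusted p = 0.0371), and 2.73 ± 0.24 higher than in input (limma adjusted p = 0.0263). CPEB1 and IgG were also above input in both pools, by 1.06 ± 0.24 and 0.63 ± 0.24, which did not pass (limma adjusted p = 0.468 and 0.546).

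Creb1 has 6 probe sets, and they too fell apart. The brightest, 1421582_PM_a_at, stood at 5.75 and 4.37 with CPEB4, 5.74 and 4.84 with CPEB1, 4.24 and 4.90 with IgG and 5.20 and 4.99 in input. In WT both antibodies were above IgG, and in HD both were below it, so that the mean difference was 0.49 ± 0.53 with CPEB4 and 0.72 ± 0.53 with CPEB1 (limma adjusted p = 0.561 and 0.858). A pair of probe sets listed under another shared accession was high only with CPEB4. 1428755_PM_at stood at 6.33 and 6.42 with CPEB4 and between 2.86 and 4.16 on the other 6 arrays. 1452901_PM_at stood at 5.03 and 6.22 against 3.46 to 3.77.

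The first of these was 3.35 ± 0.33 higher with CPEB4 than with IgG, 10.2-fold (n = 2 pools, limma adjusted p = 0.0323 over all probe sets), and 3.22 ± 0.33 higher than in input (limma adjusted p = 0.0372). Its IgG values, 3.15 in WT and 2.90 in HD, lay below 4.23, so the fold is taken over values near the array background. The second was 1.91 ± 0.32 higher than IgG and did not pass (limma adjusted p = 0.0755). The remaining 3 Creb1 probe sets overlapped between fractions. 1452529_PM_a_at lay between 4.28 and 5.17, 1423402_PM_at between 3.60 and 5.04, and 1421583_PM_at between 2.62 and 3.92.

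Rest and the other Sp genes had no probe set of this kind. Rest, read by 1425565_PM_at, stood at 5.47 and 6.02 with CPEB4, 5.99 and 6.25 with CPEB1, 6.13 and 6.36 with IgG and 5.87 and 5.48 in input. The fractions overlapped, and the difference of -0.50 ± 0.31 between CPEB4 and IgG did not pass (limma adjusted p = 0.355). The other 3 Rest probe sets lay between 2.97 and 4.33. In 1425564_PM_at (4.33 and 4.14) and 1425566_PM_at (3.46 and 3.33) the CPEB4 arrays were the highest, but by only 0.16 and 0.10.

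Sp1, the ubiquitous GC-box activator, lay between 2.98 and 4.58 on its 3 probe sets, and its brightest one stood at 4.08 and 3.94 with CPEB4, 3.70 and 4.46 with CPEB1, 4.09 and 3.66 with IgG and 3.90 and 3.06 in input. Sp3, the family member that can activate or repress, has 1 probe set, with 3.61 and 3.05 with CPEB4, 2.77 and 3.07 with CPEB1, 2.95 and 2.95 with IgG and 2.85 and 3.36 in input. Neither showed a fraction apart from the others, and at these dim values an enrichment cannot be told from the array background. In striatal tissue, fewer cells with a transcript and less RNA per cell cannot be told apart.

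**Figure D2:**
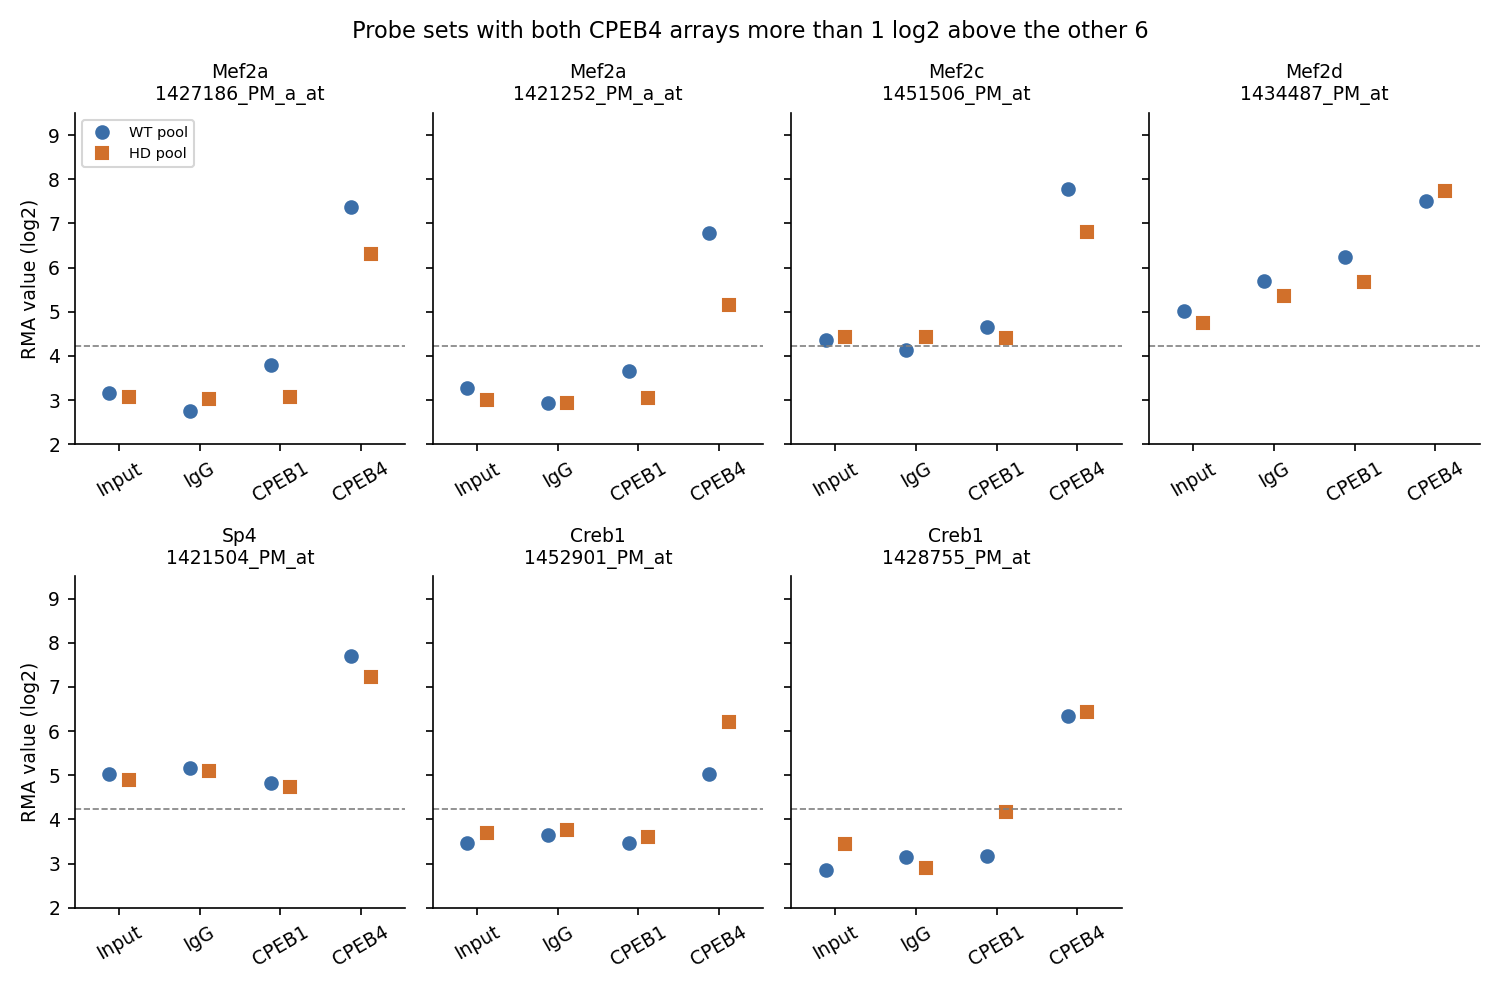
RMA value (log2, vertical axis) of the 7 probe sets whose CPEB4 arrays both lay more than 1 above the other 6, in input and in the IgG, CPEB1 and CPEB4 precipitates, with circles for WT, squares for HD and a dashed line at 4.23. They belong to Mef2a, Mef2c, Mef2d, Sp4 and Creb1; outside CPEB4 the probe sets of Mef2a and Creb1 lie below the line and the Mef2d probe set lies between 4.75 and 6.23.

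Counted over all 26 probe sets, 7 had both CPEB4 arrays more than 1 above the other 6 arrays, and they came from 5 of the 8 genes, Mef2c and Sp4 included. Over all 45101 probe sets 2.07% had that pattern. The 2 probe sets of Creb1, and those of Mef2a, read 1 gene each and are not independent. By gene 2 of the 6 tested members were past the test for CPEB4 over IgG, Mef2c and Sp4, where 2.37% of all genes were; nothing is read from that count, as the genes were noted for it. Among the other 4 genes 0 passed on their brightest probe set by limma. An unadjusted p under 0.05 was reached by 0 of these 4, and by 2598 of all 11345 genes. With probe sets tested singly 5 of 26 passed, 3 of them outside Mef2c and Sp4, against 1.32% of all probe sets. The median difference between CPEB4 and IgG was 0.36 over the 26 probe sets and -0.17 over all probe sets. The 26 hold the values that Mef2c and Sp4 were noted for, so nothing is read from this contrast.

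The 3 calls for single probe sets of Mef2a, Mef2d and Creb1 rest on all 8 arrays. In a fit of the CPEB4 and IgG arrays alone 0 of the 26 passed, where 0% of all probe sets did. Without 1 array the difference from IgG ran from 3.51 to 4.40 for Mef2a 1427186_PM_a_at. It ran from 1.79 to 2.41 for Mef2d 1434487_PM_at and from 2.95 to 3.75 for Creb1 1428755_PM_at. Those fits leave a fraction with 1 array, so no calls are read from them.

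For Mef2c CPEB4 was above input by 3.41 in WT and 2.38 in HD, and for Sp4 by 2.68 and 2.32, given as descriptions. Mef2a 1427186_PM_a_at was 3.73 ± 0.36 higher than in input (n = 2 pools, limma adjusted p = 0.0345). By gene 0 of the 4 tested members other than Mef2c and Sp4 passed by limma, where 1.36% of all genes did. An unadjusted p under 0.05 was reached by 0 of these 4, and by 2967 of all 11345 genes. As against IgG, 5 of 26 probe sets passed, 3 of them outside Mef2c and Sp4, where 1.36% of all probe sets did. The comparisons with IgG and with input share the CPEB4 arrays, so they are not separate evidence. IgG against input had 0 of 6 genes (0.0264% of all genes) and 0 of 26 probe sets (0.00222% of all) past the test by limma. At an unadjusted p under 0.05 IgG had 0 genes, against 1106 of all 11345, and 2 probe sets. For Mef2c and Sp4 it differed from input by at most 0.21 in WT and 0.19 in HD.

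With CPEB1 no member was enriched past the test. By gene 0 of 6 passed over IgG by limma, where 0% of all genes did. Over input 0 of 6 passed as well, where 0.0176% of all genes did. An unadjusted p under 0.05 was reached by 0 of 6 in either comparison. Of all 11345 genes 836 reached it over IgG and 916 over input. The smallest adjusted p was that of Mef2d, 0.767 by limma. Mef2c had 0.52 in WT and -0.03 in HD over IgG, and Sp4 had -0.34 and -0.36. Of the 26 probe sets 0 were at least 1 above IgG in both pools, where 2.06% of all probe sets were. For CPEB4 7 of the 26 were at least 1 above IgG in both pools, against 7.94% of all probe sets. These are the same 7 as counted above, with those that Mef2c and Sp4 were noted for, so the count is not separate evidence.

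**Figure D3:**
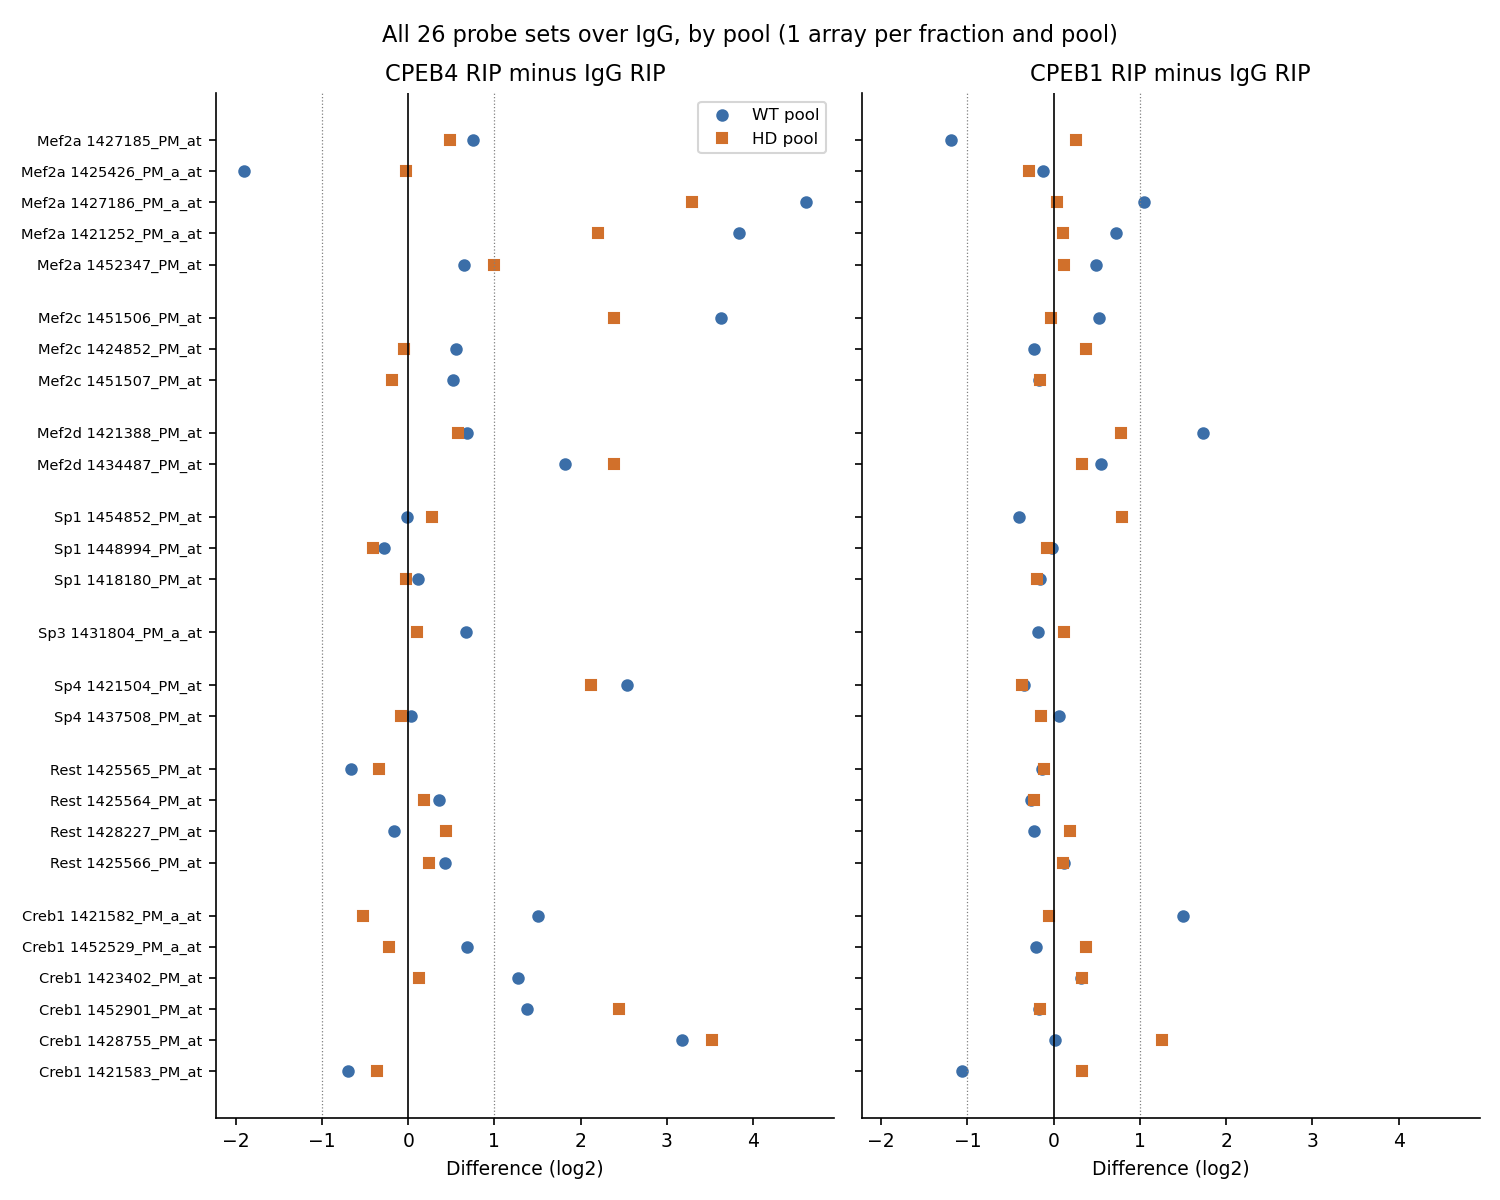
Difference from IgG (log2, horizontal axis) of all 26 probe sets, grouped by gene, for the CPEB4 precipitate on the left and the CPEB1 precipitate on the right, with circles for the WT pool and squares for the HD pool; dotted lines mark -1 and 1. On the left 7 probe sets lie at least 1 to the right of 0 in both pools, with those that Mef2c and Sp4 were noted for, and on the right 0 do.

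Set directly against each other, CPEB1 lay below CPEB4 for Mef2c (-3.10 in WT and -2.42 in HD) and for Sp4 (-2.88 and -2.49), which describes what they were noted for. By gene 0 of the other 4 tested members passed, where 0.141% of all genes did. Over single probe sets, Mef2a 1427186_PM_a_at was lower with CPEB1 (-3.41 ± 0.36, n = 2 pools, limma adjusted p = 0.0466). Creb1 1428755_PM_at (-2.72 ± 0.33, limma adjusted p = 0.0597) and Mef2d 1434487_PM_at (-1.67 ± 0.24, limma adjusted p = 0.0793) did not pass. In all 2 of 26 probe sets passed, 1 of them of Mef2c or Sp4, against 0.583% of all probe sets.

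A difference between HD and WT sets 1 array against 1 array, so no test was made. Choroid plexus markers averaged 5.06 in WT input and 7.05 in HD input. Ttr had 6.60 and 10.49 and Clic6 4.68 and 8.45, while Kl (4.73 and 4.94) and Folr1 (4.25 and 4.31) differed little. The part of this in the differences between the pools was not tested. In input 1 of 26 probe sets differed by at least 1: Mef2d 1421388_PM_at, 1.26 higher in HD (7.20 in WT and 8.46 in HD), where 8.6% of all probe sets and 15.7% of all genes differed as much. The other Mef2d probe set had -0.28, so the probe sets of the gene differ in sign. After cyclic loess or quantile normalization the difference of the first fell below 1. Input values of Mef2c differed by 0.08, of Sp4 by -0.12 and of Rest by -0.38 between HD and WT. The largest fall in input was that of Sp1 1448994_PM_at, from 4.58 to 3.60 (-0.97).

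The CPEB4 enrichment over IgG differed by at least 1 between the pools in 7 of 26 probe sets, or 2 of 6 genes, where 16.8% of all probe sets and 26.4% of all genes did. Mef2c had 3.63 in WT and 2.39 in HD, and Mef2a 1427186_PM_a_at 4.62 and 3.29. Mef2a 1421252_PM_a_at had 3.83 and 2.21. The brightest Creb1 probe set had 1.5 and -0.53, and Creb1 1423402_PM_at had 1.28 and 0.13. All of these were lower in HD. In the other direction Mef2a 1425426_PM_a_at had -1.90 in WT and -0.026 in HD, and Creb1 1452901_PM_at had 1.38 and 2.45. Sp4 had 2.54 and 2.13, a difference below 1. For CPEB1 6 of 26 probe sets and 2 of 6 genes differed by at least 1, where 16% and 26.6% did.

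**Figure D4:**
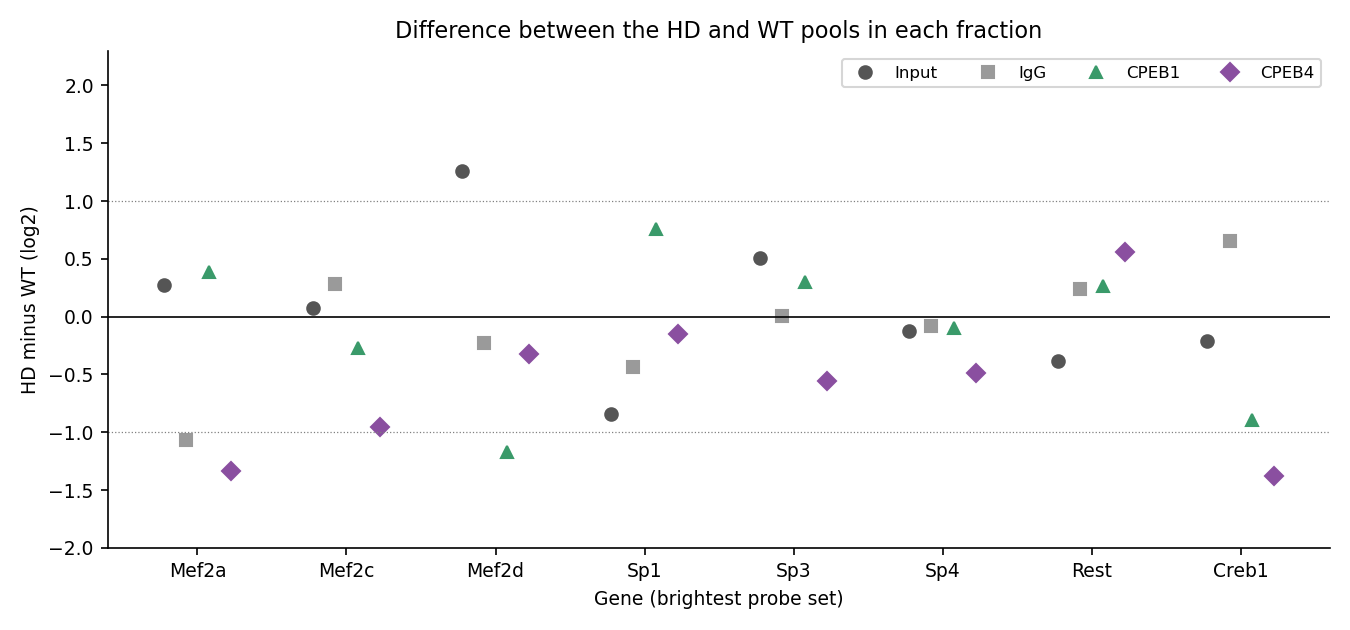
HD minus WT difference (log2, vertical axis) of the brightest probe set of each gene in input (circles), IgG (squares), CPEB1 (triangles) and CPEB4 (diamonds), from 1 array per pool and fraction; dotted lines mark -1 and 1. Mef2d lies at 1.26 in input, and Creb1 and Mef2a lie lowest with CPEB4, at -1.38 and -1.33.

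Genes whose values followed Mef2c most closely over the 8 arrays, by Pearson r among the 11345 genes, were the zinc transporter gene Slc30a5 (r = 0.998), the histone deacetylase gene Hdac1 (r = 0.995) and the sorting nexin gene Snx3 (r = 0.994). For Sp4 they were the transporter gene Slc16a6, the zinc finger factor gene Insm1 and Ugcg, which makes glucosylceramide (r = 0.992 for each). Mef2c and Sp4 themselves correlated at r = 0.977. The 8 arrays of each gene share their pools and fractions, and such an r is set mainly by 2 high CPEB4 arrays, so these are descriptions. Without the CPEB4 arrays the means of Slc30a5 (3.81), Hdac1 (3.73), Insm1 (4.05) and Ugcg (3.99) lay below 4.23, so these 4 were among the genes searched only through the CPEB4 arrays. Slc16a6, for instance, stood at 9.20 and 7.77 with CPEB4 and at 4.60 to 5.21 elsewhere.

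Partners of these factors were read from 4 lists. Of 11 genes for MEF2 partners, 10 were tested; 1 was higher with CPEB4 than with IgG and 0 were lower, where 2.37% of all genes passed. Ppp3r1, the regulatory subunit of calcineurin, had 8.68 and 7.72 with CPEB4, 6.04 and 5.11 with IgG, 4.91 and 4.69 with CPEB1 and 4.62 and 4.36 in input, so both CPEB4 arrays were above all others (2.63 ± 0.32 over IgG, n = 2 pools, limma adjusted p = 0.0367). A second Ppp3r1 probe set had 6.31 and 6.14 with CPEB4 but 7.47 with WT CPEB1, and the third lay between 3.64 and 3.90. The MEF2 corepressor gene Cabin1 (2.91 ± 0.58, limma adjusted p = 0.0786) and the calcineurin catalytic gene Ppp3ca (2.56 ± 0.84, limma adjusted p = 0.173) did not pass. The median of the list was 0.97, against -0.06 over all genes. The median over all genes changed with the filter, from -0.16 with none to 0.34 with the 75th percentile filter. The part of brightness in the list medians, here and below, was not tested. The calls of Ppp3r1 and, below, of Hdac1 rest on all 8 arrays: with only the CPEB4 and IgG arrays fitted, or without any 1 input, IgG or CPEB4 array, 0 of the 11345 genes passed by limma (1404 to 2923 with an unadjusted p under 0.05).

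The list for REST corepressors had 16 genes, among them Usp7 and Btrc, which are not corepressors. Of these 16, 14 were tested, 1 was higher and 0 were lower, where again 2.37% of all genes passed. The median of the list was 1.16. Hdac1 had 7.24 and 6.18 with CPEB4 and 3.52 to 4.27 on the other 6 arrays (3.15 ± 0.36 over IgG, n = 2 pools, limma adjusted p = 0.0367). Its mean without the CPEB4 arrays was 3.73, below 4.23, so it entered the test only through those arrays and could hardly have entered without being high there. Kdm1a, the histone demethylase of the CoREST complex, had 3.12 ± 1.05 (limma adjusted p = 0.18). Usp7, a deubiquitinase that stabilises REST, had 3.0 ± 1.62 (limma adjusted p = 0.307), all of it from the HD pool (-0.06 in WT and 6.06 in HD), where its IgG value was 4.13 against 10.10 in WT.

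Of 18 genes for the CREB family, its coactivators and kinases, 13 were tested and 0 passed in either direction, with a median of 1.51. An unadjusted p under 0.05 by limma was reached by 6 of the 13, and by 2598 of all 11345 genes. The 3 largest values of the list were those of protein kinase A subunit genes: Prkacb 4.18 ± 0.98 (4.15 in WT and 4.22 in HD, limma adjusted p = 0.101), Prkar2b 2.23 ± 0.60 (limma adjusted p = 0.129) and Prkaca 2.20 ± 0.40 (limma adjusted p = 0.0642). Another subunit gene, Prkar1a, had 1.51 ± 0.59 (limma adjusted p = 0.215), below Crtc1 at 2.17, a CREB coactivator gene. Of 21 genes for the Sp and KLF families with the TFIID subunits, 12 were tested and 0 passed (2 with an unadjusted p under 0.05 by limma), with a median of 0.13; Klf13 had 2.08 ± 0.81, Klf15 2.0 ± 0.39 and Klf16 1.18 ± 0.73 (limma adjusted p = 0.213, 0.0762 and 0.35). For CPEB1 over IgG 0 genes of the 4 lists passed by limma. An unadjusted p under 0.05 was reached by 4 of them, and by 836 of all 11345 genes. The medians were 0.16 for MEF2 partners, 0.41 for the REST list, 0.36 for the CREB list and 0.06 for the Sp list. The median over all genes was 0.09.

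**Figure D5:**
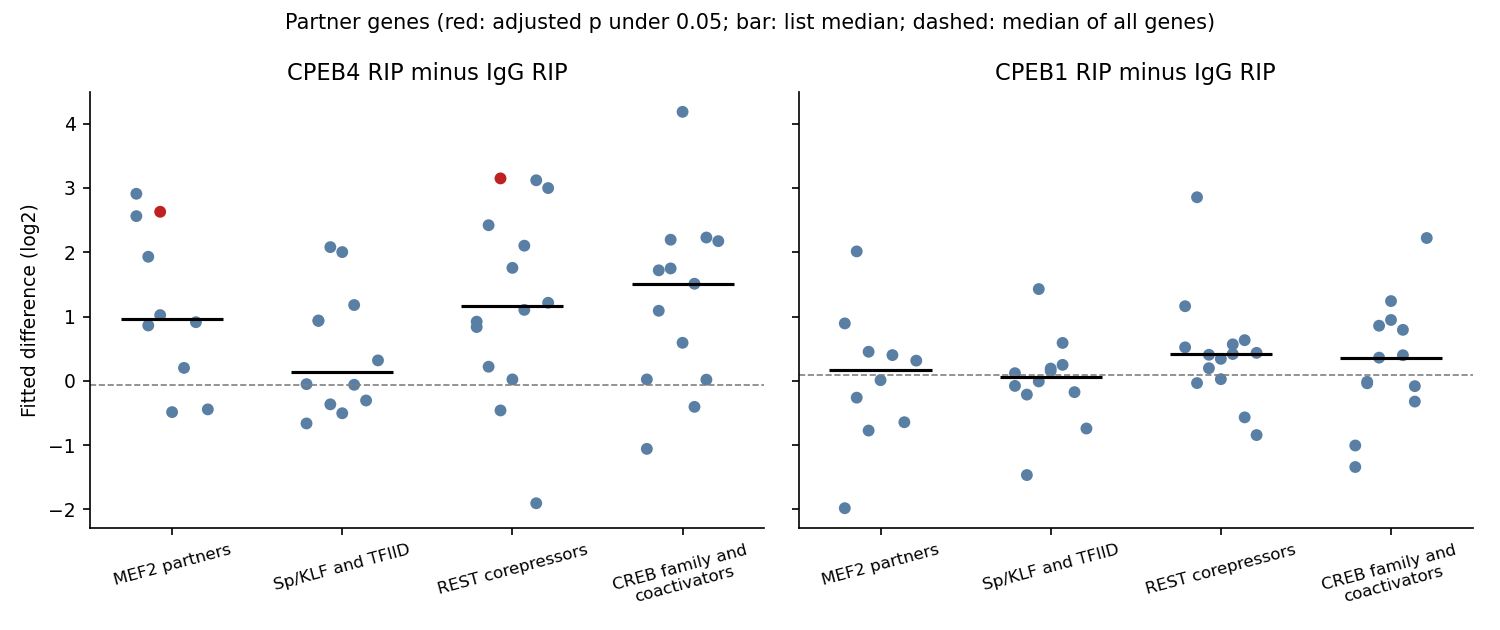
Fitted log2 difference from IgG (vertical axis) of each tested gene of the 4 partner lists with CPEB4 on the left and CPEB1 on the right; bars are list medians, the dashed line is the median of all genes, and red marks an adjusted p under 0.05. With CPEB4 Ppp3r1 and Hdac1 are red, Hdac1 having entered the test only through the CPEB4 arrays. The list medians run from 0.13 to 1.51 with CPEB4 and from 0.06 to 0.41 with CPEB1.

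Mef2c is also known from microglia and endothelium, so their markers were read beside it. With CPEB4 the 5 tested microglial genes had a median of -0.27 over IgG and the 3 tested endothelial genes -0.31, with 0 of each past the test by limma (1 and 0 with an unadjusted p under 0.05). The mean level of the 6 microglial markers was 5.40 and 4.97 with CPEB4, 6.08 and 5.30 with IgG, and 5.47 and 5.57 in input. That of the 5 endothelial markers was 4.38 and 4.64 with CPEB4, 4.77 and 4.87 with IgG, and 5.19 and 4.83 in input. The part of these cells in the Mef2c values was not tested. Medium spiny neuron markers had a median of 0.67 over IgG with CPEB4, with 0 of 7 tested past the test by limma (2 with an unadjusted p under 0.05). The medians of oligodendrocyte markers (0.89, 5 tested) and astrocyte markers (0.69, 5 tested) were as high, with 0 of each past the test by limma (1 and 0 with an unadjusted p under 0.05).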

How the data were processed

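All 8 arrays were used (4 fractions, 2 genotype pools). The authors deposited log2 values summarised per probe set by RMA, per the submitters' processing notes; the RMA version, the annotation's build and whether RMA saw all arrays at once are not stated. No further scaling was applied. In the platform annotation 28898 probe sets name 1 gene, 551 several and 15652 none; 28689 were found in the RefSeq gene table (GRCm38.p6). No coordinates or sequences are printed: the build is unknown, and probe, transcript and protein sequences were not used here.

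A gene was read by its probe set of highest mean among those naming it alone, and the 11345 genes above 4.23 were tested with limma 3.58.1 under R 4.3.3: a model of fraction with genotype pool as block, 3 residual and 2.29 prior degrees of freedom, two-sided, adjusted p under 0.05 by Benjamini-Hochberg. Errors are that model's standard errors (SE). The 2 pools stand in for replicates, so a fraction effect that depends on genotype enters as error. The same model on all 45101 probe sets, adjusted over all of them, was run beside it. The model was tested on simulated data. Pools were compared at a log2 difference of 1. The number of arrays limits the precision.

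Members and lists were chosen with earlier results of these data known. Named were all members, list genes past the test, the 3 of largest CPEB4 over IgG difference in each partner list, and the 3 genes nearest to Mef2c and to Sp4 by r, passing over clone and predicted-gene identifiers; the markers named and the 7 probe sets high with CPEB4 were picked after their values were seen. Alternatives varied the filter (none, 75th percentile), the reading of a gene (average of its probe sets), the normalization (cyclic loess, quantile, median centring), the model (unblocked, trended robust eBayes, the compared arrays alone), and left out each array.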

Additional observations from a re-analysis of the deposited data

Results flagged for a closer look

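In 3 cases the WT and HD pools moved in opposite directions from IgG and differed by at least 1 on the log2 scale; with 1 array per pool and fraction the difference was not tested. The brightest Creb1 probe set, 1421582_PM_a_at, was 1.5 above IgG with CPEB4 in WT and 0.53 below it in HD (-0.53), a difference of -2.03. With CPEB1 the same probe set had 1.49 in WT and -0.06 in HD, a difference of -1.55. The brightest Mef2a probe set, 1427185_PM_at, had -1.19 with CPEB1 in WT and 0.26 in HD, a difference of 1.45, which turned to -0.14 when the 5 Mef2a probe sets were averaged. The IgG arrays enter each of these values: from WT to HD the IgG value rose from 4.24 to 4.90 for Creb1 and fell from 5.43 to 4.37 for Mef2a, and the part of this in the differences was not tested.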

How the results depend on the processing

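Over IgG, the CPEB4 differences of Mef2c ran from 1.14 (mean of its probe sets) to 3.31 and those of Sp4 from 1.75 to 2.52 over the alternatives, and from 2.51 to 3.50 and 2.14 to 2.52 without 1 array. Of the 6 genes tested, 2 were past the threshold for CPEB4 over IgG, where 2.37% of all genes were. They were Mef2c and Sp4, noted for these values, so their calls are descriptions. With the 75th percentile filter 1 of 3 tested members was past it, Sp4 (2.1% of all genes). With all probe sets tested singly 5 genes had a probe set past it, where 1.32% of all probe sets were. Counts were 0 with averaged probe sets (3 members tested, 2.74% of all genes), quantile normalization (0.0793%) and only the 4 arrays compared (0%). Against input the 2, again Mef2c and Sp4, became 5 genes with all probe sets singly (1.36% of all probe sets). They became 0 with the 75th percentile filter (0.14% of all genes), the mean of probe sets (1.35%), quantile normalization (0.0176%) or the 4 arrays (0%). Between CPEB1 and CPEB4 the 0 became 1, Sp4, with no filter, cyclic loess or median centring (0.123%, 0.538% and 0.229% of all genes). It became 2, Mef2c and Sp4, with no genotype block or trended robust eBayes (0.714% and 0.661%). With all probe sets singly it became 2 as well (0.583% of all probe sets). Of the member probe sets, 5 were past the threshold over IgG and 5 over input, 3 of each outside Mef2c and Sp4. With the 4 arrays 0 were in either comparison, of the members and of all probe sets. Between the antibodies 2 member probe sets passed, where 0.583% of all probe sets did. They became 4 with cyclic loess (0.987%), no genotype block (1.03%) or trended robust eBayes (0.94%). With quantile normalization (0.333%) or median centring (0.51%) 1 passed, and with the 4 arrays 0 (0%). An array left out leaves its fraction with 1, taken to vary like the others, and fewer degrees of freedom.

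Signs turned for tested differences that had not passed and for 1 untested difference between the pools, that of Mef2a with CPEB1 (1.45). For Mef2d CPEB4 over IgG was -0.047 with cyclic loess and -0.38 after quantile normalization, and CPEB1 against CPEB4 was -0.52 with the mean of probe sets and -0.084 to 1.33 without 1 array (lowest without WT CPEB1). For Creb1 CPEB4 over IgG ran from -0.26 (without WT IgG; -0.13 without WT CPEB4) to 1.23 without 1 array, and CPEB1 over IgG from -0.023 (without WT IgG) to 1.46. Creb1 CPEB1 against CPEB4 was -0.076 with cyclic loess and -0.38 (without HD CPEB4; -0.06 without WT CPEB1) to 0.85 without 1 array. For Mef2a CPEB1 over IgG was 0.12 with the mean of probe sets and -1.01 to 0.083 without 1 array (highest without WT CPEB1), and its HD minus WT value for CPEB1 was -0.14 with the mean of probe sets. For Mef2c CPEB1 over IgG ran from -0.088 (without WT IgG) to 0.58. The causes were not tested. Between the pools 1 gene differed by at least 1 in input, where 15.7% of all genes did. That count became 0 with the mean of probe sets, cyclic loess or quantile normalization. The 2 for CPEB4 over IgG (26.4% of all genes) became 0 with the mean of probe sets and 1 after quantile normalization. The 2 for CPEB1 over IgG (26.6%) became 0 with the mean of probe sets. The shares of all genes under these alternatives were not counted. The model is paired by genotype pool, and the fit with no genotype block is among the alternatives above; the labels give no replicate numbers that could pair arrays in another way. Sp1 and Sp3 have only values near the array background.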
